A study of Mus musculus with 48 samples.

Results

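The subject is a set of 384 transcription start clusters of primary mouse CD4+ T cells that carry no gene symbol and were higher in stimulated cells. They lie more than 1000 bp from every cluster with a single symbol, while clusters with several symbols were not considered. Capped RNA 5′ ends were sequenced by CAGE (cap analysis of gene expression), and each deposited row is a tag cluster, a short stretch of start sites on 1 strand. Of the 17272 clusters of the CD4 table, 3643 carried no symbol, and 2758 of these had no cluster with a single symbol within 1000 bp on either strand. The 384 members are those whose mean level without PD-1 engagement, plus 1 RPM (tags per 1 M tags of the library), was at least 2 times as high at 10000 ng/ml as at 0 ng/ml of stimulating antibody. The members were thus chosen by the RPM of the 10000 and 0 ng/ml unengaged libraries, so the fold itself (2.00 to 23.5, median 2.57) is a description and was not tested. The members just inside the threshold lay nearest Srrm2 (2.00-fold), Wdr81 (2.01) and Il7r (2.01), and the clusters just below it, at folds that also round to 2.00, lay nearest Cd247, Cish and Filip1l.

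The cells were CD4+ T cells of BALB/cCrSlc mice, purified and given 2C11, an antibody to the CD3 part of the T cell receptor complex. The CD4 groups received 0, 10, 100, 1000 or 10000 ng/ml of 2C11, each with or without engagement of the inhibitory receptor PD-1, with 3 libraries in either group at 10000 ng/ml and 2 in every other group. A second system was the hybridoma DO11.10, an immortal fusion of BALB/c x AKR/J background whose receptor recognises an ovalbumin peptide (pOVA). It was given 0 to 10000 nM of pOVA with or without engagement and has 26 libraries beside the 22 of CD4 cells. The labels give neither the way PD-1 was engaged, nor the time of stimulation, nor whether replicates were separate animals or cultures, so p-values measure the spread between these libraries, which may be technical. Positions are on mm9 as deposited, and whether they count from 0 or 1 is not stated. Groups are named by dose and as engaged or unengaged.

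Transcription in mammalian genomes starts at many places outside annotated promoters. Active enhancers and unannotated promoters give rise to capped RNA, at enhancers often from both strands in divergent pairs. In T cells, receptor signalling acts through calcium and NFAT, through AP-1, EGR and NF-kB factors, and PD-1 dampens the proximal part of that signalling. CAGE counts capped ends whatever their source, and a cluster without a symbol carries no label of what it is.

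The CD4 libraries held 4.42 to 22.8 M tags, and the deposited clusters held 81.8 to 87.1% of them. All 8 T cell markers fixed for the check (Cd4, Cd3e, Cd3g, Cd3d, Cd5, Lck, Thy1, Lat) were in the table, at 3428 to 5309 RPM summed, against 488 to 1097 RPM for 8 B cell and antigen-presenting markers. The T cell sum was lower at the top dose: 3428 to 4088 RPM at 10000 engaged, against 4324 to 4541 RPM at 0 engaged, and 3957 to 4028 RPM at 10000 unengaged, against 4923 to 5085 RPM at 0 unengaged, without overlap in either arm. Of the myeloid list only Cst3 had a cluster, at 146 to 194 RPM. Of the CD8 and NK list Cd8a, Klrd1 and Ncr1 had none, and Cd8b1, Gzma and Nkg7 summed to 21.7 to 40.2 RPM. That sum was 33.2 to 40.2 RPM at 10000 unengaged, against 26.3 to 27.9 RPM at 0 unengaged. With engagement the same doses overlapped, at 24.2 to 30.1 RPM and 25.5 to 26.7 RPM. The B cell and antigen-presenting sum was 971 to 1085 RPM at 100 ng/ml engaged, against 645 to 771 RPM at 100 unengaged, and 766 to 947 RPM at 1000 engaged, against 488 to 633 RPM at 1000 unengaged. The part of any of these sums in the stimulation and PD-1 results was not tested. In bulk RNA, fewer cells of a type and less RNA per cell cannot be told apart.

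The members were narrow, with a median width of 41 bp and 39 of them 1 base wide. They lay on 20 chromosomes, 210 on the plus and 174 on the minus strand. Their unengaged mean at 10000 ng/ml ran from 1.06 to 3082 RPM with a median of 5.18 RPM, so most were weak starts. All 384 passed the filter for testing, and the deposited table itself holds no cluster that stayed below 3 RPM in every CD4 library.

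The promoters of 5 named genes that lie beside runs of members are printed here because each has at least 3 members nearby and is on the list of T cell receptor response genes. They are Il2ra (the alpha chain of the interleukin-2 receptor), Cish (a cytokine-induced inhibitor of the SOCS family), Nr4a3 and Nr4a1 (orphan nuclear receptors of the immediate response), and Irf4 (an interferon regulatory factor). The sequences are from RefSeq, GRCm38.p6, 250 bases before to 50 bases after the annotated start, all on the plus strand, at chr2:11642542-11642841, chr9:107296409-107296708, chr4:48045055-48045354, chr15:101266596-101266895 and chr13:30748983-30749282. Capitals mark matches, on either strand, to the AP-1 site TGANTCA, the cyclic AMP response element TGACGTCA, the STAT site TTCNNNGAA, the EGR site GCGNGGGCG and the NFAT core GGAAA.
Il2ra: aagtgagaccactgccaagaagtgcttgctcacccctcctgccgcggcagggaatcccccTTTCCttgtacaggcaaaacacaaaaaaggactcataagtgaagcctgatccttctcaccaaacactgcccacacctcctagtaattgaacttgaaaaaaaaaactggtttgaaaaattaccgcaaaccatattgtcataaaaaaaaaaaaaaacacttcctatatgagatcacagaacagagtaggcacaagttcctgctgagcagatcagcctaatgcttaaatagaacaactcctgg
Cish: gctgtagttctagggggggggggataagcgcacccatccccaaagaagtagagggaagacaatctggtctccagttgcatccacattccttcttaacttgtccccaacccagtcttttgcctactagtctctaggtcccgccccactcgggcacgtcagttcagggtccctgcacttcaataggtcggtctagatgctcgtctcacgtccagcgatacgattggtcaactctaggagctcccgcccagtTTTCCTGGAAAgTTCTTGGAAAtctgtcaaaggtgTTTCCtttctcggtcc
Nr4a3: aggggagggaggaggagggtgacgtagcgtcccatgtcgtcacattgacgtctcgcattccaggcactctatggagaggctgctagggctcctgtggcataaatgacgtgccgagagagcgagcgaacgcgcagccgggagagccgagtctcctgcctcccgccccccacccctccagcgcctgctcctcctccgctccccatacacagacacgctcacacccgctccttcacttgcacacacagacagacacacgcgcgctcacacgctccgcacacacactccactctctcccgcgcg
Nr4a1: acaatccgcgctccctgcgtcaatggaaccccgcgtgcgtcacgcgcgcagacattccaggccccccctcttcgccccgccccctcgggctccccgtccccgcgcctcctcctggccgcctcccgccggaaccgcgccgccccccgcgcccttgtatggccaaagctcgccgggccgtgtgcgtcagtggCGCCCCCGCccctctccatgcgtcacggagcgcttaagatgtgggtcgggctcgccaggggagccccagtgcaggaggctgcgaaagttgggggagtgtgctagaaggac
Irf4: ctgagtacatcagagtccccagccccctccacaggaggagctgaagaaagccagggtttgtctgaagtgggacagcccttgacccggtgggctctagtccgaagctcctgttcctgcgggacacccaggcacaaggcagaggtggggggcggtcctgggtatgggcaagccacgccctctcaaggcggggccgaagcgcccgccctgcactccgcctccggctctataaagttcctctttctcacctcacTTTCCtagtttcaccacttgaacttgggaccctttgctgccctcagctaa
The Cish window held 2 STAT matches and 4 NFAT cores, which overlap in part, at the annotated start and just after it, the Il2ra and Irf4 windows 1 NFAT core each, and the Nr4a1 window 1 EGR match. The Nr4a3 window held none of the 5 motifs. Over 32851 RefSeq promoters of the same length, 8.30% held the STAT letters, 61.3% the NFAT core, 5.55% the EGR letters, 7.81% the AP-1 letters and 1.79% the response element, so a match is a description of the letters and not a site. The members' own sequences are not printed, because their coordinates are on mm9 and no mm9 genome was used here.

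A block of 40 members sat on chr17:39980121-39983302, a stretch of 3.18 kb beside AY036118, where RefSeq places Rn18s-rs5, a sequence related to 18S ribosomal RNA, next to AY036118. The other 344 members were spread over the genome. The level of the 40 varied by library as much as by dose: their sum was 1645, 3713 and 5278 RPM in the 10000 engaged libraries and 3837 and 4191 RPM in the 0 engaged libraries. It was 6331 RPM in replicate 1 of 100 engaged, the smallest CD4 library (4.42 M tags), against 1907 RPM in replicate 2. Without engagement it was 1805 to 2759 RPM at 10000 ng/ml, against 835 to 1029 RPM at 0 ng/ml, which is the contrast that made these clusters members. With engagement the groups at 10000 and 0 ng/ml overlapped. The sum of the other 344 overlapped in the same way with engagement, at 7295, 10687 and 13415 RPM at 10000 engaged, against 8382 and 7576 RPM at 0 engaged, and it includes the highest member of all, described next. Their median, which weights all members alike, was higher with engagement, at 3.57, 4.54 and 5.03 RPM at 10000 engaged, against 1.45 and 1.54 RPM at 0 engaged. Without engagement it was 4.47 to 4.96 RPM at 10000 ng/ml, against 0.918 to 0.929 RPM at 0 ng/ml. That unengaged direction was fixed by the choice of members.

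**Figure D1:**
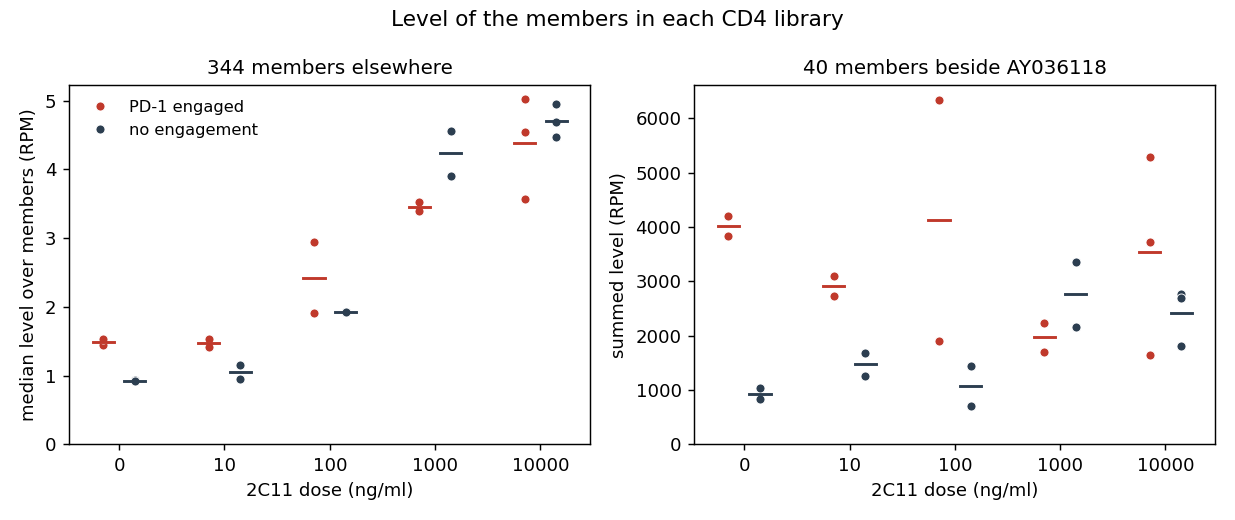
Level of the members in each CD4 library (points) with group means (bars), by 2C11 dose in ng/ml, PD-1 engaged libraries left of unengaged ones. Left, the median over the 344 members away from AY036118 in RPM, which climbs with dose in both arms. The unengaged groups at 10000 and 0 ng/ml chose the members. Right, the summed RPM of the 40 members beside AY036118, with 1 engaged library at 6331 RPM and overlapping engaged groups at 10000 and 0 ng/ml.

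Of the 344 members elsewhere, 72 moved with that block, with a correlation r of at least 0.7 between log2(RPM + 1) and the summed level of all 135 unnamed clusters beside AY036118 over the 22 CD4 libraries. They were 13 of the 260 that rose under engagement in the test given next (median r 0.16) and 59 of the 84 that did not (median r 0.80). Of those 84, 81 had a higher mean at 0 engaged than at 0 unengaged, as had all 40 beside AY036118 and 139 of the 260. The rule picked members for a low mean at 0 unengaged, which favours that direction. The share over clusters that are not members is not given here. The 40 are part of that sum; with the 95 clusters there that are not members, their median r was 0.91. All libraries share the same scaling to their total. The member at chr10:95540337-95540505 (minus strand, 137 kb from Eea1), the highest of all, had r = 0.98. Its level was 2677, 4418 and 6418 RPM at 10000 engaged, against 4614 and 4093 RPM at 0 engaged. The member nearest AW146020 (chr6:79768179-79768309) had r = 0.97, and a run of 5 members at chr13:85266320-85267108, about 62 kb from Ccnh, had 0.69 to 0.93. These points are libraries of 1 experiment, among them those that chose the members. The engaged libraries enter both r and the test that parts the 260 from the 84. The share of all clusters with an r of at least 0.7 is not given here, and the values are a description.

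The independent check of stimulation used libraries that took no part in the choice of members, those with PD-1 engaged. In the limma fit, with Benjamini-Hochberg adjustment over all clusters, 260 of 384 members (67.7%) were higher at 10000 engaged than at 0 engaged, while 32.1% of all clusters were; 3 members were lower, against 28.0% of all clusters. Among the 344 away from AY036118, 260 rose and 1 fell. Among the 40 beside it 2 fell and 0 rose, with 0 at an unadjusted p under 0.05 and 0 by edgeR and DESeq2. The median log2 difference was 1.14 for the 344 and −0.31 for the 40, against 0.03 over all clusters. Of the 2373 tested distal unnamed clusters that are not members, 252 rose and 985 fell, with a median of −0.41. The 260 ran from 0.51 to 4.45 on the log2 scale of RPM + 1, and 38 reached 2. Differences of log2(RPM + 1) understate the change of weak clusters. A single step of dose without engagement, 1000 against 10 ng/ml, also lay outside the rule: 288 members rose (28.9% of all clusters did) and 0 fell in limma, at an unadjusted p under 0.05 or by edgeR or DESeq2. Of the 288, 281 were among the 344, and 250 members passed both tests. With the libraries of 10 ng/ml as the base, 124 members already rose at 100 ng/ml unengaged (17.7% of all clusters). In the engaged arm, set against 0 ng/ml, 58 members rose at 100 ng/ml (6.28% of all clusters) and 0 fell in limma (4.1% of all clusters), with 1 at an unadjusted p under 0.05. At 1000 ng/ml 216 rose and 18 fell (25.0% and 25.8%), 13 of the 18 beside AY036118. At 10 ng/ml limma called 0 in either direction (0.0% of all clusters), with 3 higher and 4 lower at an unadjusted p under 0.05.

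**Figure D2:**
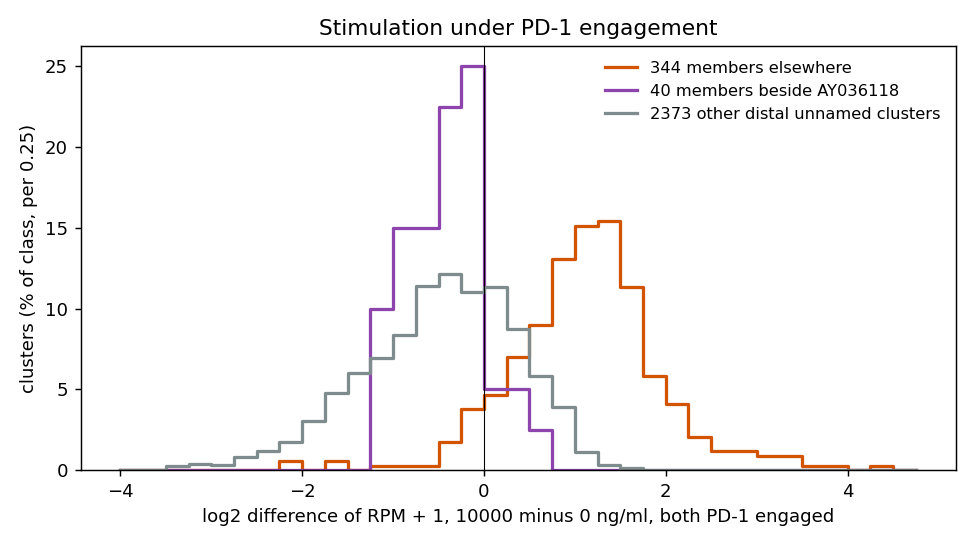
Distribution of the log2 difference in RPM + 1 between 10000 and 0 ng/ml 2C11, both with PD-1 engaged, as percent of each class per step of 0.25. The 344 members away from AY036118 centre near 1.14, the 40 beside it near −0.31, and the 2373 other distal unnamed clusters near −0.41.

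The 10 members with the largest difference under engagement lay nearest Scmh1, Hemk1, Nr4a3, Nhedc2, Lsmd1, Gramd1b, Gemin8, Cwc27, Dnmt3a and Nr4a1. The strongest of all was chr4:119705408-119705493 (plus strand), 372 kb from Scmh1, a Polycomb-group gene. It had 78.2, 104 and 97.3 RPM at 10000 engaged, against 4.06 and 2.61 RPM at 0 engaged. The groups lay far apart, and the log2 difference was 4.45 ± 0.18 (SE; adjusted p = 8.8e-13). Scmh1 itself was at 5.68 ± 0.54 RPM (SD, n = 3) at 10000 engaged, against 6.03 ± 0.49 RPM (n = 2) at 0 engaged, with adjusted p = 0.722 in the limma fit. The RefSeq gene order lists Hivep3, Edn2 and Foxo6 among the genes between the flanking named clusters Foxj3 and Scmh1.

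The member at chr9:107236649-107236651 (minus strand) lay between Cish and Hemk1, 2.95 kb from the start of Hemk1, a protein methyltransferase gene. It had 18.5, 22.9 and 21.9 RPM at 10000 engaged, against 0.696 and 0.307 RPM at 0 engaged. All 10000 engaged libraries lay above both 0 engaged ones, with a log2 difference of 3.89 ± 0.24 (SE; adjusted p = 1.30e-10). The member at chr4:48060123-48060230 lay between named clusters of Nr4a3 on either side, 1.67 kb upstream of the nearest of them on the same strand. It had 26.5, 19.2 and 21.8 RPM at 10000 engaged, against 0.812 and 0.922 RPM at 0 engaged, again without overlap, for a difference of 3.64 ± 0.24 (adjusted p = 4.08e-10). The Nr4a1 member, chr15:101084653-101084739, 12.5 kb upstream of Nr4a1 on its strand, had 24.1, 35.9 and 31.3 RPM, against 3.36 and 2.46 RPM in the same groups (3.0 ± 0.18, adjusted p = 9.81e-11).

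Nhedc2 is the older symbol of Slc9b2, a sodium/proton exchanger gene. Its member, chr3:134961815-134961910, 8.77 kb upstream, had 24.6, 21.1 and 23.3 RPM at 10000 engaged, against 1.04 and 1.23 RPM at 0 engaged (3.49 ± 0.20, adjusted p = 7.2e-11). The member inside the Gramd1b neighbourhood (a sterol transfer protein gene), chr9:40242730-40242784 on the minus strand, had the largest fold used for choosing, 23.5. It had 23.1, 20.8 and 15.7 RPM at 10000 engaged, against 1.16 and 0.768 RPM at 0 engaged (3.40 ± 0.18, adjusted p = 2.6e-11). The member nearest Lsmd1 (now Naa38), chr11:69222906-69222963, had 47.8, 42.3 and 40.7 RPM, against 3.36 and 2.92 RPM, while Lsmd1 had adjusted p = 0.0557. RefSeq lists Kdm6b, a histone demethylase gene, among those between Lsmd1 and its other named neighbour Wrap53.

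Dose curves without engagement were read as a description, since their end points chose the members. The median member had made 21.4% of its rise at 100 ng/ml and 92.5% at 1000 ng/ml, and the median half-maximal dose, interpolated on log10 dose, was 241 ng/ml (quartiles 158 and 378). It lay at or below 100 ng/ml in 53 members, between 100 and 1000 in 306 and above 1000 in 25. In 146 members the 1000 ng/ml mean was above the 10000 ng/ml mean. The Nr4a1 member peaked early: it had 31.4 and 37.1 RPM at 100 unengaged, 35.4 and 29.2 RPM at 1000 and 17.6, 16.1 and 19.7 RPM at 10000, with 4.22 and 3.10 RPM at 0. The highest dose was thus below the middle doses in every library, without overlap. The Scmh1-side member likewise had 120 and 100 RPM at 1000 unengaged and 73.3, 78.7 and 69.7 RPM at 10000. The Nhedc2 member was late, with 3.14 and 5.09 RPM at 100, 22.7 and 26.7 RPM at 1000 and 39.1, 32.8 and 46.2 RPM at 10000, a half-maximal dose of 602 ng/ml. With engagement, 303 members had a rise of at least 1 RPM and a median half-maximal dose of 277 ng/ml. In the 260 called members the median was 225 ng/ml unengaged; in the 257 of them with an engaged curve it was 292 ng/ml, and the engaged dose was the higher in 170.

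**Figure D3:**
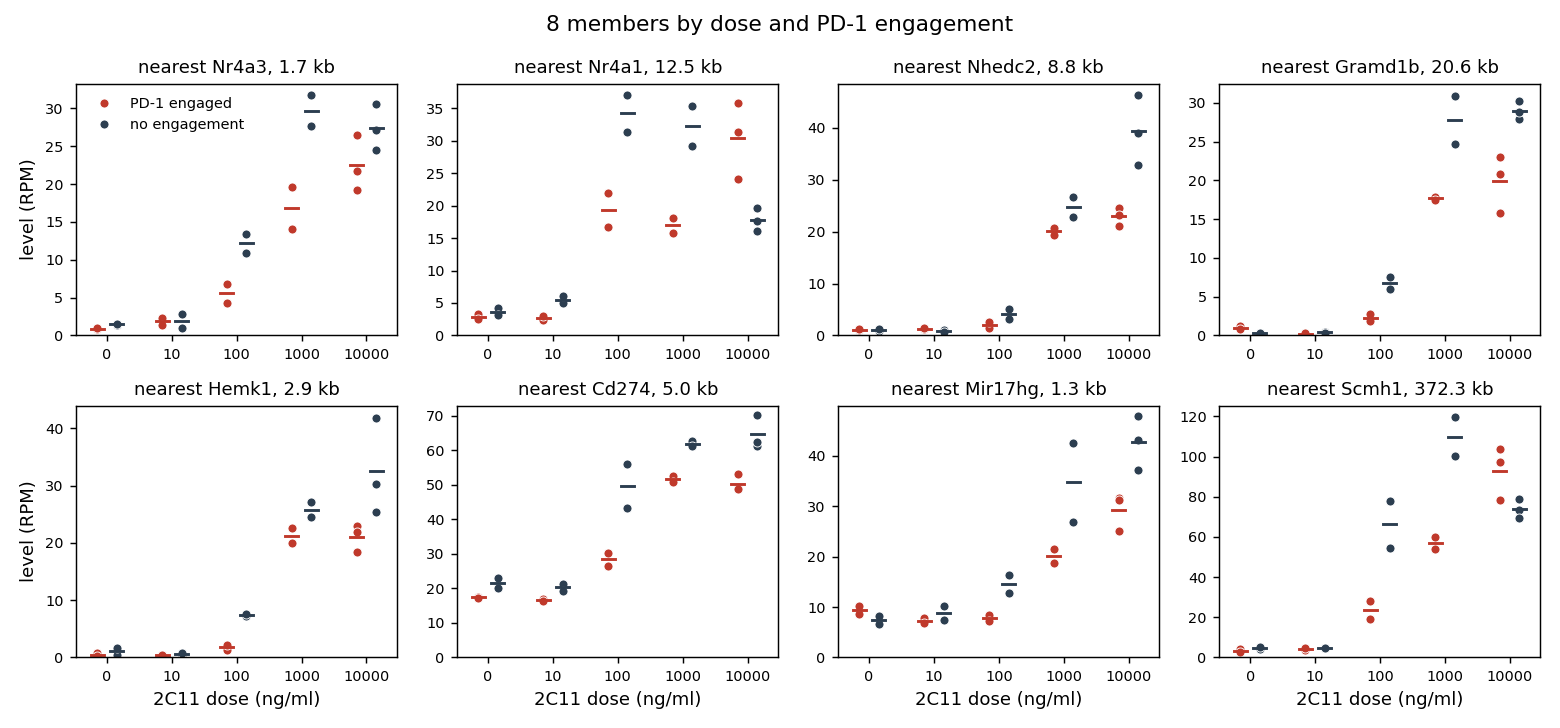
Level in RPM of 8 members in each CD4 library (points) with group means (bars), by 2C11 dose in ng/ml, PD-1 engaged left of unengaged; each panel gives the nearest named gene and its distance. The Nr4a1 and Scmh1 panels fall off at 10000 ng/ml without engagement, and the Nhedc2 panel keeps climbing.

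PD-1 engagement was tested at 100 and 1000 ng/ml, doses that the choice of members did not use, as the mean of both engaged minus unengaged differences. Here 76 members fell (19.8%) and 37 rose (9.64%), while 31.0% of all clusters fell and 5.06% rose. The median difference was −0.03 for the members, against −0.16 over all clusters. These splits depend on scaling: tag counts scaled by TMM (edgeR) or by DESeq2 size factors put the median of all clusters at 0.02. With edgeR 49 members fell and 64 rose (12.8% and 16.7%), while 13.1% of all clusters fell and 13.1% rose. With DESeq2 it was 40 and 63 (10.4% and 16.4%), against 11.2% and 11.2% of all clusters, and after quantile normalization 58 and 47 (15.1% and 12.2%), against 12.2% and 11.4%. The share of members that fell was thus below that of all clusters in limma, DESeq2 and, narrowly, edgeR, and above it after quantile normalization. The share that rose was above it in all of these fits, and no difference in shares was tested. The 76 lay between −1.22 and −0.28 on the log2 scale; 74 of them were among those that rose under engagement. Of the 40 beside AY036118, 5 rose in limma, 10 by edgeR and 9 by DESeq2, and 11 were higher at an unadjusted p under 0.05; 0 fell in any of these. Of the 37 that rose, 27 had a correlation of at least 0.7 with the summed level beside AY036118, 22 of them among the 32 that lay elsewhere, and of the 76 that fell, 0 did. A fit with that level as a covariate, added after the data were seen, had 82 members lower and 19 higher (23.3% and 4.42% of all clusters). The part of that level in the rises was not tested; without replicate 1 of 100 engaged, 68 members fell and 18 rose (25.1% and 4.09% of all clusters), and without replicate 2 of that group, 80 fell and 90 rose (32.2% and 7.27%). Rises thus outnumbered falls or not according to which of the pair was kept.

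At single doses, 60 members fell and 89 rose at 100 ng/ml (24.5% and 4.94% of all clusters), and 33 fell and 0 rose at 1000 ng/ml (10.5% and 2.02%), with 3 higher at an unadjusted p under 0.05 in limma. At 10 ng/ml 0 fell and 2 rose (0.272% and 0.151%), with 16 lower and 74 higher at an unadjusted p under 0.05. Of the 89 at 100 ng/ml, 25 were AY036118 members, and replicate 1 of 100 engaged is 1 of the 2 libraries behind that group. Counts at 2 doses do not show that the effects differ, and the difference between doses was not tested.

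**Figure D4:**
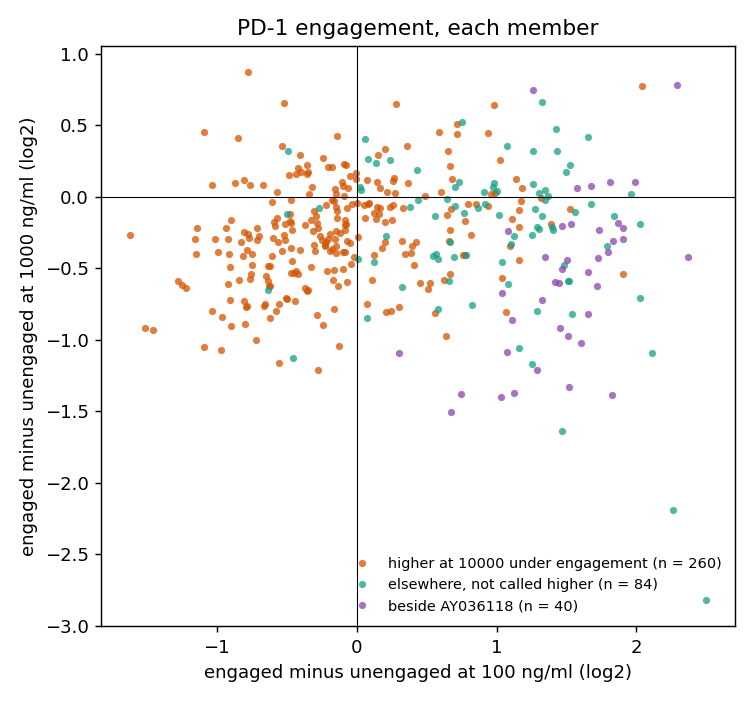
Log2 difference in RPM + 1, engaged minus unengaged, at 1000 ng/ml (vertical) against 100 ng/ml (horizontal) for each of the 384 members. All 40 members beside AY036118 lie right of 0 at 100 ng/ml and 34 of them below 0 at 1000 ng/ml, and the members of the other classes spread on both sides.

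The 10 members with the smallest p for a fall were those nearest Scmh1, Klhl17, Lsmd1, Gramd1b, Cd274, Mrpl39, Nfil3, Nr4a1, Gemin8 and Stt3a, and all 10 stayed lower in every alternative fit, the other scalings included. The Scmh1-side member had 19 and 28.2 RPM at 100 engaged, against 54.5 and 77.9 RPM at 100 unengaged. At 1000 it had 54.1 and 59.8 RPM engaged, against 120 and 100 RPM unengaged. The groups did not overlap at either dose (−1.19 ± 0.14, SE; adjusted p = 1.56e-05). The member 1.15 kb from Klhl17, chr4:155610118-155610259, had 33.5 and 45.2 RPM at 100 engaged, against 63.6 and 84.3 RPM unengaged, and 73.4 and 76.5 RPM at 1000 engaged, against 128 and 155 RPM unengaged (−0.90 ± 0.12, adjusted p = 2.85e-05).

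Cd274 encodes PD-L1, a ligand of PD-1. The member at chr19:29446941, a single base 4.99 kb downstream of the Cd274 start on its strand, had 26.5 and 30.4 RPM at 100 engaged, against 43.3 and 56.1 RPM at 100 unengaged. At 1000 it had 52.5 and 50.8 RPM engaged, against 62.7 and 61.3 RPM unengaged (−0.52 ± 0.08, adjusted p = 0.000157). Cd274 summed over its own clusters fell by the same measure (−0.53 ± 0.07, adjusted p = 1.27e-05). The member beside Nfil3, a bZIP factor gene, had 0.904 and 0.859 RPM at 100 engaged, against 3.14 and 3.19 RPM unengaged (−0.77 ± 0.13, adjusted p = 0.000175). The member at chr16:84703573-84703577, named for Mrpl39 at 31.9 kb, had 6.11 and 4.78 RPM at 100 engaged, against 16.9 and 17.7 RPM unengaged (−1.22 ± 0.20, adjusted p = 0.000162). RefSeq lists Mir155hg, host of miR-155, among the genes between its named neighbours.

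The 5 members with the smallest p for a rise lay nearest Def8, Ust, Dnajc27 and, for a pair of them, AY036118. The Def8 member, chr8:125957126-125957309, had 25.1 and 8.88 RPM at 100 engaged, against 3.04 and 2.79 RPM at 100 unengaged (1.40 ± 0.26, adjusted p = 0.000462). Both engaged libraries lay above the unengaged ones but differed widely from each other, and the higher was replicate 1, the library with 6331 RPM beside AY036118. Its correlation with that summed level was 0.82, and those of the Ust and Dnajc27 members were 0.85 and 0.75.

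Inhibition was taken as the percentage by which the engaged rise over its own 0 ng/ml mean fell short of the unengaged rise. It had a median of 45.5% at 100 ng/ml (178 members with a rise of at least 1 RPM) and 43.1% at 1000 ng/ml (370 members). These percentages use the 0 unengaged libraries of the rule and are a description. The 0 engaged mean subtracted was above the 0 unengaged mean in 260 of the 384 members, which raises the percentage. The 178 were picked for an unengaged rise at 100 ng/ml; over all 384 the engaged minus unengaged log2 difference at that dose was positive in 207 and negative in 177, with a median of 0.12. At 10000 ng/ml, where the unengaged libraries also chose the members, the median was 28.1% (384 members). In the 260 members that rose under engagement, the medians were 49.5% at 100 ng/ml (143 members) and 30.1% at 1000 (258). For the 40 beside AY036118 the 1000 ng/ml median was 220%, their summed engaged level at 1000 ng/ml (1705 and 2235 RPM) being below that at 0 engaged. Single members ranged widely: at 100 ng/ml it was 79.9% for the Hemk1 member, 79.6% for Gramd1b, 56.4% for Nr4a3 and 46.3% for Nr4a1. At 1000 ng/ml the same members had 16%, 39.2%, 43.5% and 50.9%.

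Divergent pairing, a minus cluster left of a plus cluster with facing edges at most 500 bp apart, was found for 67 members (17.4%, exact binomial 95% interval 13.8 to 21.6). Of the 40 beside AY036118, 36 had such a partner, in a block crowded with clusters on both strands. Of the other 344, 31 did (9.01%, interval 6.21 to 12.6), against 11.2% of distal unnamed clusters that are not members (267 of 2374). No cluster beside AY036118 was taken out of those 2374, so these sets were not cut alike. Clusters with a single symbol had a partner in 18.6% (2470 of 13258). Clusters are not independent, and both sides of a pair of members are counted, so the intervals may be too narrow. The shares were not tested. A partner enters the table only if it reached the level of a deposited cluster, so weak second strands are not counted.

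Among the 344 there were 9 pairs in which both sides are members, 1 to 386 bp apart, and in 8 both sides rose under engagement. The highest was the Cish to Hemk1 pair, chr9:107236649-107236651 (minus) and chr9:107237038-107237158 (plus), 386 bp apart. The minus side averaged 21.1 ± 2.32 RPM and the plus side 8.83 ± 1.07 RPM (SD, n = 3) at 10000 engaged, against 0.501 and 2.66 RPM at 0 engaged. Both fell with PD-1 (−0.94 ± 0.18, adjusted p = 0.00072, and −0.68 ± 0.15, adjusted p = 0.00175). Another 2 pairs lay nearer Cish, 3.71 and 6.68 kb from its start, at 1.98 and 4.18 RPM and at 1.97 and 2.67 RPM (minus and plus, 10000 engaged). The pair 65.8 kb from Il7r, the interleukin-7 receptor gene, rose on both sides, by 1.07 ± 0.28 (adjusted p = 0.00267) and 1.00 ± 0.23 (adjusted p = 0.000838), while Il7r itself fell by 1.84 on the log2 scale (adjusted p = 8.6e-11). RefSeq lists Capsl, Skp2, Ugt3a1 and Ugt3a2 between the flanking named clusters Lmbrd2 and Il7r. In the H2-T24 pair the minus side rose (1.40 ± 0.24) and the plus side did not pass (0.26 ± 0.25, adjusted p = 0.392).

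The members fell into 18 runs of at least 3 with neighbours at most 50 kb apart, 17 of them away from AY036118 with 74 members. The longest after AY036118 was the run of 9 on chr2:11538795-11583717, 1 between Rbm17 and Il2ra and 8 within 18.7 kb downstream of the Il2ra start. Of the 9, 8 rose under engagement, while 32.1% of all clusters did. With PD-1, 0 of the 9 passed limma, edgeR or DESeq2 in either direction, with 1 lower at an unadjusted p under 0.05. Over all clusters, limma called 31.0% lower and 5.06% higher. Together they summed to 29.1 RPM at 10000 engaged, against 7.23 RPM at 0 engaged, and at 100 ng/ml 12.8 RPM engaged, against 11.4 RPM unengaged. Il2ra itself, at 431 ± 27 RPM (SD, n = 3) at 10000 engaged, against 76.4 ± 7.0 RPM (n = 2) at 0 engaged, fell with PD-1 (−0.51 ± 0.07, adjusted p = 3.67e-05). The highest of the run, chr2:11573125-11573227 on the strand opposite to Il2ra, had 4.75 and 4.78 RPM at 100 engaged, against 4.76 and 4.83 RPM at 100 unengaged (mean of both doses 0.06 ± 0.19, adjusted p = 0.833). The difference between Il2ra and these clusters in their response to PD-1 was not tested.

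The run of 8 between Cish and Hemk1, chr9:107205452-107237158, rose in all 8 and fell with PD-1 in 3. Of all clusters, 32.1% rose and 31.0% fell with PD-1, and no difference in shares was tested. Of the 3, chr9:107215165-107215215 lost its call under quantile normalization, edgeR and DESeq2. The run summed to 54.2 RPM at 10000 engaged, against 8.38 RPM at 0 engaged, and at 100 ng/ml to 10.2 RPM engaged, against 27.4 RPM unengaged. Cish itself was lower with PD-1 (log2 difference −0.92 ± 0.06, adjusted p = 2.78e-08). The 5 members of the Nr4a3 run, all on the plus strand, rose in all 5, by 1.62 to 3.64 on the log2 scale, and those near Nr4a1 and Irf4 rose in 3 of 3 each. The Prkcq run (protein kinase C theta) rose in 5 of 5, while Prkcq fell (−0.66 ± 0.08, adjusted p = 1.04e-06). The Cblb run, 17.9 to 43.9 kb downstream of the start of that E3 ligase gene, rose in 1 of 5. The run of 6 between Gm11932 and Casp8ap2, where the RefSeq genes in between were not found, lay over 120 kb from either name. Its highest member, chr4:32511675-32511760, had 31.5, 29.2 and 27.6 RPM at 10000 engaged, against 8.12 and 9.84 RPM at 0 engaged (1.61 ± 0.14, adjusted p = 9.39e-09).

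**Figure D5:**
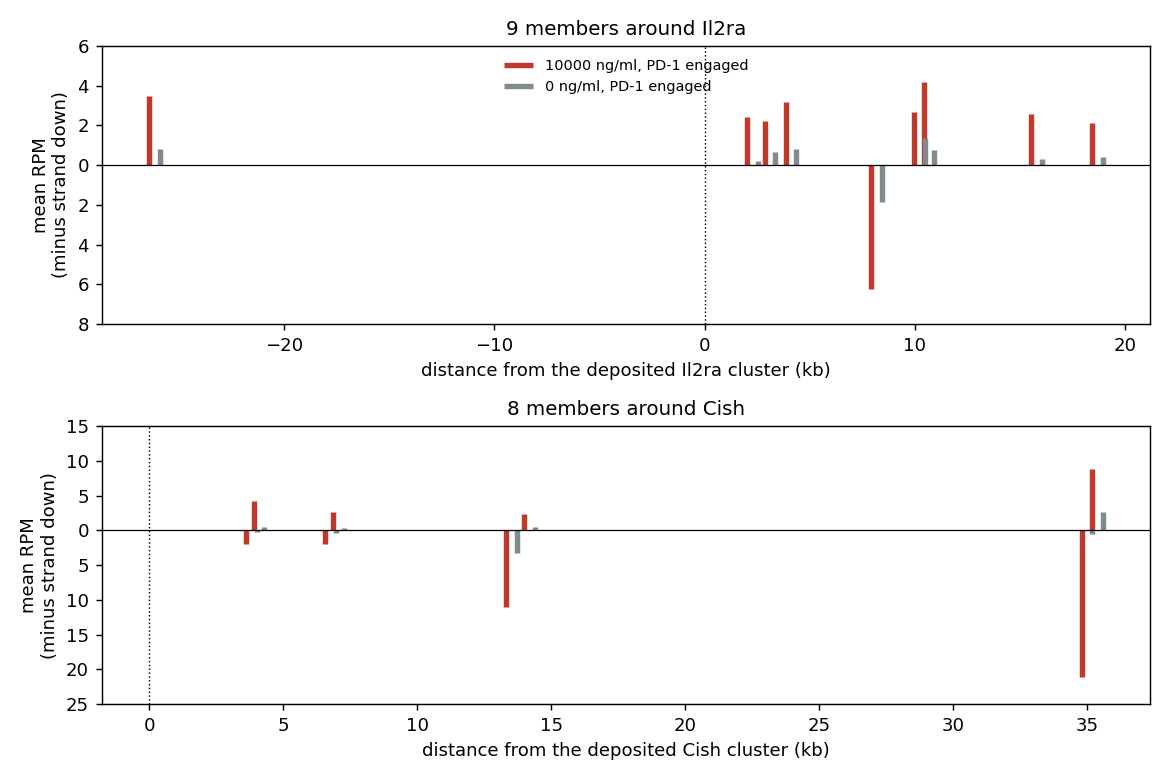
Mean RPM of the members of the Il2ra run (9, top) and the Cish to Hemk1 run (8, bottom) at 10000 ng/ml (red) and 0 ng/ml (grey), both PD-1 engaged, against distance in kb from the deposited Il2ra or Cish cluster; minus-strand clusters point down, and each pair of bars is set slightly apart at 1 position. All but 1 of the Il2ra run and all 8 of the other rose.

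The nearest named start, taken over clusters with a single symbol, lay a median of 14.6 kb from a member (quartiles 3.98 and 48.8 kb). For the other distal unnamed clusters it was 16.3 kb. With the block beside AY036118 taken out of the members alone, the order turned round, and the 344 had a median of 18.5 kb. Of the 344, 34.9% lay within 10 kb, against 40.02% of the other distal clusters. No cluster beside AY036118 was taken out of the latter, so these sets were not cut alike. Within 10 kb there were 160 members in all, within 50 kb 289 and within 100 kb 312, and the farthest was at 2105 kb. Most members (266, 69.3%) lay on the downstream side of that start, 172 of them on the gene's strand, and 67.4% of the other distal clusters did too. Members named 244 nearest genes, of which 184 had 1 member; away from AY036118, Il2ra had 8, Cblb 7, and Prkcq and Cish 6 each.

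Of the 244 nearest genes, 143 rose and 44 fell at 10000 against 0 ng/ml under engagement, while 38.4% of all genes rose and 26.4% fell. Of the 100 within 10 kb, 67 rose and 16 fell. Of the 212 called members within 100 kb of their nearest gene, the gene rose beside 145 and fell beside 34. Members and genes share libraries, so these are counts side by side. With PD-1 engagement 151 of the 244 fell and 8 rose, while 45.3% of all genes fell and 4.24% rose; under edgeR's scaling it was 84 and 31, while 16.6% of all genes fell and 17% rose. Of the 58 members that fell with PD-1 within 100 kb of a gene, that gene fell for 44.

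A list of 111 genes of the T cell receptor response, 106 of them in the table, served as the pathway's background. It was chosen with earlier results of these data known, so its counts are a description. Under engagement 81 of the 106 rose and 16 fell (38.4% and 26.4% of all genes). With PD-1 92 fell and 2 rose (45.3% and 4.24% of all genes), with a median of −0.61, against −0.23 over all genes. These counts are from limma alone, and by edgeR 16.6% of all genes fell with PD-1. Of these genes, 21 had a member within 100 kb, 48 members in all. Of the 48, 42 rose under engagement (87.5%, against 67.7% of all members and 32.1% of all clusters). Among the 344 members away from AY036118 that share was 75.6%. With PD-1 12 of the 48 fell and 1 rose. The 12 are 25.0% of the 48, below the 31.0% of all clusters that fell. They are above the 19.8% of all members and the 22.1% of the 344, and no difference in shares was tested. Counted by response gene, Il2ra (10), Cish (8), Nr4a3 (5), Irf4 and Nr4a1 (3 each) held most. The 1 that rose, named after its values were seen, was 3.34 kb from Egr3, an early growth response factor gene, with 4.07 and 1.91 RPM at 100 engaged, against 0.202 and 0.797 RPM at 100 unengaged (0.60 ± 0.23, adjusted p = 0.0483), and it kept its call in 13 of 32 alternatives. Upstream of Mir17hg, host of the miR-17 to miR-92 cluster, chr14:115440164-115440189 had 25.1, 31.6 and 31.2 RPM at 10000 engaged, against 8.58 and 10.3 RPM at 0 engaged (1.53 ± 0.18, adjusted p = 8.15e-07), and fell with PD-1 (−0.77 ± 0.14, adjusted p = 0.000472).

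In the hybridoma, 188 members overlapped a cluster by at least 1 base, 180 hybridoma clusters in all and none with a symbol there. None of these libraries took part in the choice. Of the 180, 65 rose and 3 fell at 10000 nM against 0 nM pOVA without engagement, while 13.8% of all hybridoma clusters rose and 16.2% fell; all 65 lay away from AY036118. The Nr4a3 member had 15.1, 10.8 and 12.3 RPM at 10000 nM and was listed at 0 in both 0 nM libraries (adjusted p = 5.91e-11), and the Nhedc2 member had 18.2, 21.0 and 17.2 RPM, against 0.09 and 0 RPM (adjusted p = 4.82e-13). The member 380 kb from Hpgds had 21.2, 25.2 and 24.1 RPM at 10000 nM, against 0 and 0.06 RPM at 0 nM. The Scmh1-side member did not pass in the hybridoma (−0.55 ± 0.47, adjusted p = 0.391). With PD-1 engaged at 100 and 1000 nM, 17 of the 180 fell (1.59% of all hybridoma clusters) and 0 rose (0.0888%) in limma, at an unadjusted p under 0.05 or by edgeR or DESeq2. With the pairs of equal dose and number as a block, 31 fell and 2 rose (17.2% and 1.11%), while 4.50% of all hybridoma clusters fell and 1.98% rose. The 17 without the block included the clusters near Hpgds (−1.62), Nhedc2 (−1.41), Gramd1b (−1.23), Nr4a3 (−1.22 for the stronger) and Nr4a1 (−0.77, −1.01 and −0.63).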

How the data were processed

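The authors deposited 1 CAGE table each for CD4+ T cells and the hybridoma, whose RPM values (tags per 1 M tags) come, per the labels, from TRIzol total RNA. The tools named in the submitters' processing notes are HISAT2 2.0.5 and BWA 0.7.12, with build mm9; cluster calling and symbol assignment are not stated. Values were whole multiples of 1 tag (100% of CD4 values within 0.1 tag), so deposited RPM could be turned back into tag counts for edgeR 4.0.16 and DESeq2 1.42.0 as alternatives. RPM tests used limma 3.58.1 (R 4.3.3) on log2(RPM + 1) over all groups of a system, with clusters at 1 RPM in at least 2 libraries (17269 CD4 clusters), Benjamini-Hochberg adjustment over all clusters, and a call at adjusted p under 0.05. Nearest genes were summed over their single-symbol clusters. The half-maximal dose was the first crossing on log10 dose. Scripts were tested on simulated data. Named were the 10 highest members, the 10 with the largest stimulated difference, the 10 (lower) and 5 (higher) smallest PD-1 p, 15 near response genes, 8 pairs, 6 runs and those at the threshold; the 244 nearest genes' neighbours come from RefSeq (236 matched). Members and lists were chosen with earlier results of these data known. Equal replicate numbers correlated by 0.21 to 0.66 in the hybridoma, as deviations from group means. They were taken as pairs only in an alternative fit, and the main hybridoma fit used no block. The results of some members named by this rule are not reported here.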

Additional observations from a re-analysis of the deposited data

Results flagged for a closer look

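A pair of members moved in opposite directions in the 2 systems, every stimulated library lying on one side of the unstimulated ones in CD4 cells and on the other side in the hybridoma. The difference itself was not tested, and the stimulus and PD-1 engagement differ between the systems. Near Cdk6, a cell cycle kinase gene, chr5:3341458-3341510 averaged 44.8 ± 9.08 RPM (SD, n = 3) at 10000 ng/ml engaged, against 10.9 ± 1.97 RPM (n = 2) at 0 engaged, a log2 difference of 1.94. In the hybridoma it had 57.7, 53.2 and 45.2 RPM at 10000 nM, against 77.2 and 92.4 RPM at 0 nM, a log2 difference of −0.69. Near Pycard, an inflammasome adaptor gene, chr7:135156756 had a log2 difference of 0.77 in CD4 cells and −0.42 in the hybridoma. There it had 21.1, 24.1 and 17.7 RPM at 10000 nM, against 29.2 and 27.4 RPM at 0 nM. Groups of 2 or 3 libraries allowed no test for a sample far from the others.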

How the results depend on the processing

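Stimulation calls held: 230 to 284 members rose under engagement and 234 to 331 at the dose step over the alternatives that kept all members. PD-1 calls depended on scaling: 49 members were lower and 64 higher with edgeR, and 40 and 63 with DESeq2. With the level beside AY036118 as a covariate, which was added after the data were seen, 82 were lower and 19 higher. Leaving out 1 library gave 60 to 80 lower and 15 to 90 higher, the lowest and highest of these without replicate 2 of 1000 unengaged and without replicate 2 of 100 engaged. It was 18 without replicate 1 of 100 engaged, 19 without replicate 2 of 100 unengaged and 22 without replicate 1 of 1000 engaged. Nearest genes lower with PD-1 numbered 81 after quantile normalization, 84 with edgeR and 79 with DESeq2. In the hybridoma 11 members fell with only the 100 and 1000 nM groups, 31 with the replicate block of pairs and 11 to 18 when 1 library was left out, 11 without replicate 1 of 100 nM. The half-maximal dose was 215 to 282 ng/ml and 237 to 331 ng/ml with engagement, and inhibition 40.7 to 58.8% at 100 ng/ml and 41.4 to 46.4% at 1000 ng/ml, when 1 library was left out. Without AY036118 members, 9.01% had a divergent partner. The cause of these shifts was not tested.

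In CD4 cells equal numbers correlated by −0.02 to 0.21, and the main fit there used no block either. The replicate block by number gave 241 members higher under engagement, 300 at the step, and 79 lower and 49 higher with PD-1; a block of dose and number pairs gave 82 and 54. Of 2671 alternatives for 85 results of named members, 121 lost the call and 0 reversed. In the shallowest library 1 tag is 0.226 RPM, which limits the weak clusters.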
